A study of Mus musculus with 8 samples.

Results

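The genes described are Tcf3, Tcf12 and Tcf4, which encode the E proteins of these cells, and Esr1, the estrogen receptor gene whose reads tag the E47-ER construct. They are the 4 rows, of 50686 in the count table, whose Ensembl gene IDs carry these 4 symbols, and each symbol matched 1 ID. All 4 were among the 13644 genes that passed the filter on low counts and were tested. Esr1 passed that filter through its E47-ER libraries, where it is high.

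RNA of ILC2, group 2 innate lymphoid cells that produce type 2 cytokines, had been sequenced in bulk; the cells came from the thymus of C57BL/6 mice. In the E47-ER groups they had received a MIGR1 retrovirus encoding E47-ER, a fusion of the Tcf3 product E47 to the estrogen receptor, and were treated with 4-hydroxytamoxifen for 4 h or for 16 h. In the GFP groups they had received MIGR1 with GFP alone and had the same treatment for the same times. Each of the 4 groups held 2 libraries. Both the E47-ER and the GFP cells came from mice with the plck-Id1 transgene, had been sorted for GFP after transduction and had been expanded in IL-33, IL-25 and IL-7. The transgene therefore lay in every library, and its inhibitor Id1 acts on E proteins. In plck transgenes the proximal promoter of Lck, active in developing T cells, drives expression. There was no E47-ER library without 4-hydroxytamoxifen, so a difference that preceded the drug cannot be told apart from one that followed it. Neither the age of the mice nor the origin of the 2 libraries of a group, from separate mice or cultures or from 1, is given in the sources used here. The p-values thus cover the spread between libraries alone, and that spread may be technical.

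E proteins are basic helix-loop-helix transcription factors that bind DNA as dimers at E-boxes, short sequences written CANNTG. Tcf3 encodes E47 and E12 by alternative splicing, Tcf12 encodes HEB and Tcf4 encodes E2-2. In lymphoid precursors they drive B and T lineage genes, while the Id proteins, which lack the DNA-binding region, hold them in inactive dimers; the ILC lineages depend on Id2. A protein fused to the hormone-binding part of the estrogen receptor is held inactive by HSP90 chaperones until a ligand such as 4-hydroxytamoxifen is added. The ligand acts on the fusion protein and not on its transcript, so the read counts below show the RNA of the construct and not its activity.

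The promoters of Tcf3 and Tcf12 are shown because reads of these 2 genes were the more abundant among the E protein genes of E47-ER cells, and the construct carries a product of the first under a viral promoter. Each runs from 250 bases before to 50 bases after a transcript start in RefSeq (GRCm38.p6), 5′ to 3′, with matches to CANNTG in capitals. That motif reads as itself on both strands, and no 2 matches overlap.
Tcf3 (chr10:80433586-80433885, minus strand): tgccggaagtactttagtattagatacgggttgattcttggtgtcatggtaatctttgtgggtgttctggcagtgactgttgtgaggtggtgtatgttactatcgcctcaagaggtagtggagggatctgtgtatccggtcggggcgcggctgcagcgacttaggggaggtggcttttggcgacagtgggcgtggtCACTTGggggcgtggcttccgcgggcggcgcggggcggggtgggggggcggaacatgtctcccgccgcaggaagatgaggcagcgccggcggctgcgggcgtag
Tcf12, upstream start (chr9:72111770-72112069, minus strand): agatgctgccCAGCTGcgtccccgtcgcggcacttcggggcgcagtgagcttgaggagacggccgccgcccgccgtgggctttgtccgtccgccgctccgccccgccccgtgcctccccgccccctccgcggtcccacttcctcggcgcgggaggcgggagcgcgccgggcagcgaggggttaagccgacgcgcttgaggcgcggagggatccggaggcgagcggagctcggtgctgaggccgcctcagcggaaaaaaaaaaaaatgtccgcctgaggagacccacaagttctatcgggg
Tcf12, middle start (chr9:72111152-72111451, minus strand): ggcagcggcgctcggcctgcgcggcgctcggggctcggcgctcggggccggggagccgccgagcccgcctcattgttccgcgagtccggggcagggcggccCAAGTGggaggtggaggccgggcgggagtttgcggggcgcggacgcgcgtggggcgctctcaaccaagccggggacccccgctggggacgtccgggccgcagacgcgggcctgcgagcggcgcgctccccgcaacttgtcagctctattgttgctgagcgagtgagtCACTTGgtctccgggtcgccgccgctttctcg
The Tcf3 window held 1 match, CACTTG, 54 bases before the start. The window of the upstream Tcf12 start held CAGCTG 240 bases before it, and that of the middle start held CAAGTG 149 bases before and CACTTG from base 19 after it. The table gives 1 more Tcf12 start farther downstream, whose window (chr9:71896047-71896346, minus strand) held CATGTG 5 bases before the start and is not printed. None of these windows held CAGGTG or its reverse complement CACCTG. Of 32851 RefSeq promoters of the same length, 72.3% held at least 1 CANNTG, 16.3% held CAGCTG and 20.2% held CAGGTG or CACCTG. A match describes the letters only. No promoter sequence was used here for Tcf4.

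Library totals lay between 8813782 and 18677675 counts. Levels are given in CPM, read counts divided by library size, with library sizes scaled by the trimmed mean of M-values (TMM), and log2 fold changes are E47-ER over GFP. Tests are edgeR's quasi-likelihood test with Benjamini-Hochberg adjustment over all 13644 genes, with calls made at an adjusted p under 0.05. Replicate 2 of the GFP cells at 16 h stood apart. It had the lowest total, a TMM factor of 0.854 against 1.011 to 1.033, and a mean correlation of log2 CPM with the other libraries of 0.954 against 0.980 to 0.983. Its levels moved with gene length. The shortest 10% of tested genes, up to 1223 bases of merged exons, lay at a median log2 difference of 0.68 above the mean of all libraries there. The longest 10%, from 9428 bases, lay at -0.33. Tcf4, Tcf12 and Esr1 are long, at the 99.8th, 98.0th and 96.8th percentiles of merged exon length, whereas Tcf3 lies at the 49.9th. Tests of the 4 genes, and counts or fold changes of the gene lists, are therefore also given without that library (over 7 libraries). This choice was made after the library was seen to stand apart. The remaining GFP library at 16 h is then assumed to vary like the other groups.

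Esr1, which encodes estrogen receptor alpha, a ligand-activated transcription factor, marked the construct in every E47-ER library. Esr1 (ENSMUSG00000019768) lies on chromosome 10 from 4611593 to 5005614 on the plus strand of GRCm38. At 4 h it had 822 and 634 counts in E47-ER cells, against 5 and 4 counts in GFP cells. At 16 h it had 656 and 944 counts in E47-ER cells, against 8 and 7 counts in GFP cells. The lowest E47-ER library stood 47-fold above the highest GFP library in CPM. On the CPM scale Esr1 averaged 49.1 ± 4.94 in E47-ER cells and 0.264 ± 0.0741 in GFP cells at 4 h (SD, n = 2 each), and 49.1 ± 7.55 in E47-ER cells and 0.735 ± 0.279 in GFP cells at 16 h. The counts in GFP cells are small. Their exact Poisson intervals, which cover counting error only, ran from 1.62 to 11.7 counts for the library with 5 counts and from 3.45 to 15.8 for the one with 8. Which part of the receptor the construct carries, or from which species, is not given in the sources used here, so Esr1 reads of E47-ER cells are a tag and not a measure of the whole gene.

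Esr1 was called in each comparison of E47-ER with GFP cells. The construct carries receptor sequence, and Esr1 passed the filter only through E47-ER libraries. Its calls are therefore not counted as evidence and their p-values are not given. The log2 fold change of Esr1 was 7.52 at 4 h, where 0.286% of tested genes were called. It was 6.16 at 16 h, where 1.59% were called. Averaged over both times it was 6.84, with 2.46% called. Standard errors taken from the F statistic are too small for so few GFP counts and are not given for these 3 values. Without replicate 2 of GFP at 16 h the log2 fold changes of Esr1 were 7.53, 6.49 and 7.01. The fold change was not larger at the later time. In the edgeR fit the difference of the effect, 16 h minus 4 h, was -1.36, and -1.04 over 7 libraries. It was not called with all 8 libraries. This difference rests on the same few GFP counts, so its interval is not given and no change of the effect is read from it. Between 16 h and 4 h Esr1 differed by 0.0012 in E47-ER cells (95% interval -0.41 to 0.41). In GFP cells, where it had 24 counts in all 4 libraries together, it differed by 1.36, which was not called, and by 1.03 over 7 libraries.

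**Figure D1:**
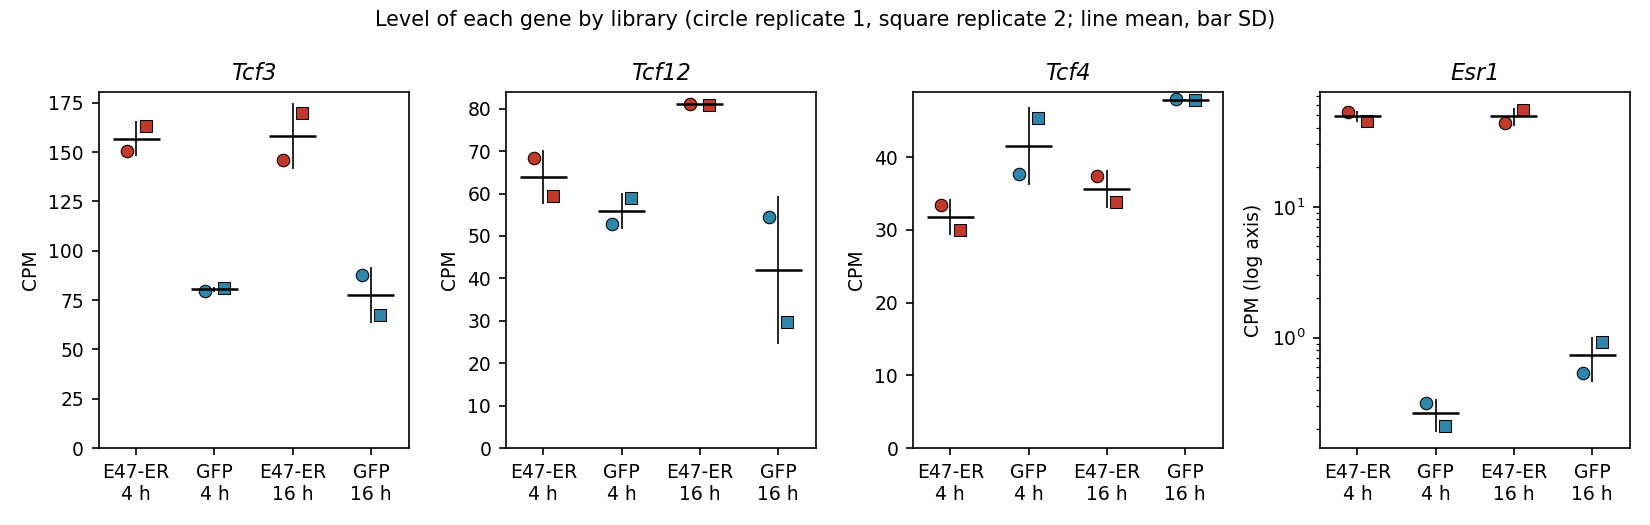
CPM of Tcf3, Tcf12, Tcf4 and Esr1 in each library, with E47-ER in red and GFP in blue, replicate 1 as circles, replicate 2 as squares, the group mean as a line and its SD as a bar (Esr1 on a log axis). Tcf3 and Esr1 were higher in all E47-ER libraries than in any GFP library, Tcf4 was lower, and the replicates of GFP at 16 h lay far apart for Tcf12.

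Reads of Tcf3 were about doubled where the construct was present. Tcf3 (ENSMUSG00000020167) lies on chromosome 10 from 80409514 to 80433647 on the minus strand, and its exons share no base with those of another annotated gene. At 4 h Tcf3 stood at 150.5 and 163.0 CPM in E47-ER cells, against 79.4 and 81.4 CPM in GFP cells. At 16 h it stood at 146.1 and 169.9 CPM in E47-ER cells, against 87.6 and 67.6 CPM in GFP cells. All 4 E47-ER libraries lay above all 4 GFP libraries, and the share of all tested genes that separate likewise was not counted. The ratio of the group means was 1.95 at 4 h and 2.04 at 16 h. The counts sum reads of the construct and of the cells' own gene, and these cannot be told apart at the level of the gene.

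The log2 fold change of Tcf3 was 0.96 at 4 h (SE 0.158, 95% interval 0.60 to 1.33, adjusted p = 0.0697) and did not pass the threshold. It was 1.02 at 16 h (SE 0.159, 95% interval 0.66 to 1.39, adjusted p = 0.0238) and 0.99 averaged over both times (SE 0.112, adjusted p = 0.0038), and both passed. Without replicate 2 of GFP at 16 h Tcf3 passed in each, with log2 fold changes of 0.97 at 4 h (adjusted p = 9.68e-08), 0.84 at 16 h (1.42e-05) and 0.90 averaged (2.75e-09). The share of tested genes called was then also higher, at 4.33%, 8.92% and 14.5%. The call at 16 h rested on more than the 4 libraries of that time: with only those 4 the adjusted p was 0.334, and leaving out any 1 of the 6 libraries other than GFP at 16 h gave 0.0810 to 0.291. The averaged call held in all 8 fits that left out 1 library. No difference between times was called for Tcf3, and the 95% interval of the difference of its effect, 16 h minus 4 h, ran from -0.45 to 0.57.

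The excess of Tcf3 reads in E47-ER cells was set beside Esr1, since the construct carries both. Above the mean of the GFP libraries of the same time, Tcf3 had an excess of 70.1 and 82.6 CPM in the E47-ER libraries at 4 h, and of 68.5 and 92.3 CPM in those at 16 h. The excess of Esr1 was 52.3 and 45.4 CPM at 4 h and 43.1 and 53.8 CPM at 16 h. The ratio of the Tcf3 excess to the Esr1 excess was thus 1.34 and 1.82 at 4 h and 1.59 and 1.72 at 16 h, a spread within the 4-h pair as wide as over all 4 libraries. Against replicate 1 of GFP at 16 h alone, the ratios at 16 h were 1.36 and 1.53. Both excesses come from the same libraries and scaling and are given as a description.

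Tcf12, which encodes HEB, the main partner of E47 in developing T cells, had higher reads in E47-ER cells at 16 h in both replicates, but the size of the difference turned on 1 GFP library. Tcf12 (ENSMUSG00000032228) lies on chromosome 9 from 71842688 to 72111871 on the minus strand. At 4 h Tcf12 stood at 68.3 and 59.4 CPM in E47-ER cells, against 52.9 and 59.0 CPM in GFP cells. At 16 h it stood at 81.1 and 80.9 CPM in E47-ER cells, against 54.4 and 29.7 CPM in GFP cells. The value of 29.7 belongs to the GFP library that stood apart, whose long genes were low. The E47-ER libraries at 16 h lay above every other library, while at 4 h the nearest E47-ER and GFP libraries differed by less than their replicates did.

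The log2 fold change of Tcf12 was 0.19 at 4 h (SE 0.246, 95% interval -0.37 to 0.76, adjusted p = 1.0), 0.93 at 16 h (SE 0.249, 95% interval 0.36 to 1.51, adjusted p = 0.115) and 0.56 averaged over both times (SE 0.175, adjusted p = 0.151). None of these passed the threshold. Without replicate 2 of GFP at 16 h the estimate of Tcf12 at 16 h was 0.57 (95% interval 0.32 to 0.81, adjusted p = 0.0030) and the average 0.38 (adjusted p = 0.0012), both past the threshold, while that at 4 h was 0.19 (adjusted p = 0.316). The difference of the effect, 16 h minus 4 h, was 0.74 (edgeR, adjusted p = 0.699), and 0.37 (adjusted p = 0.526) without that library, where 0.0424% of genes were called for the difference. Within E47-ER cells Tcf12 was 1.27-fold as high at 16 h as at 4 h, which was not called (log2 difference 0.34, adjusted p = 1.0, or 0.0564 without that library, where 3.08% were called).

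Tcf4, which encodes E2-2, known for its part in plasmacytoid dendritic cells, had lower reads in E47-ER cells at both times. Tcf4 (ENSMUSG00000053477) lies on chromosome 18 from 69343356 to 69689079 on the plus strand. At 4 h Tcf4 stood at 33.5 and 30.01 CPM in E47-ER cells, against 37.7 and 45.3 CPM in GFP cells. At 16 h it stood at 37.4 and 33.8 CPM in E47-ER cells, against 48.0 and 47.8 CPM in GFP cells. The groups did not overlap at either time, but the share of all tested genes for which this also holds was not counted. Over both times the highest E47-ER library, at 37.4 CPM, was just under the lowest GFP library, at 37.7 CPM. The ratio of group means was 0.765 at 4 h and 0.743 at 16 h.

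The log2 fold change of Tcf4 was -0.39 at 4 h (SE 0.144, 95% interval -0.72 to -0.06, adjusted p = 0.734), -0.43 at 16 h (SE 0.145, 95% interval -0.76 to -0.10, adjusted p = 0.154) and -0.41 averaged (SE 0.102, 95% interval -0.64 to -0.17, adjusted p = 0.0892). None passed the threshold. Without replicate 2 of GFP at 16 h the estimates hardly moved, at -0.39, -0.44 and -0.41, while the adjusted p was 0.0507 at 4 h, 0.0400 at 16 h and 0.0020 averaged, so the last 2 passed. The difference between the times was -0.04 (95% interval -0.51 to 0.43). In both fits the 3 E protein genes thus had estimates in different directions, positive for Tcf3 and Tcf12 and negative for Tcf4. Whether they differ from each other was not tested.

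**Figure D2:**
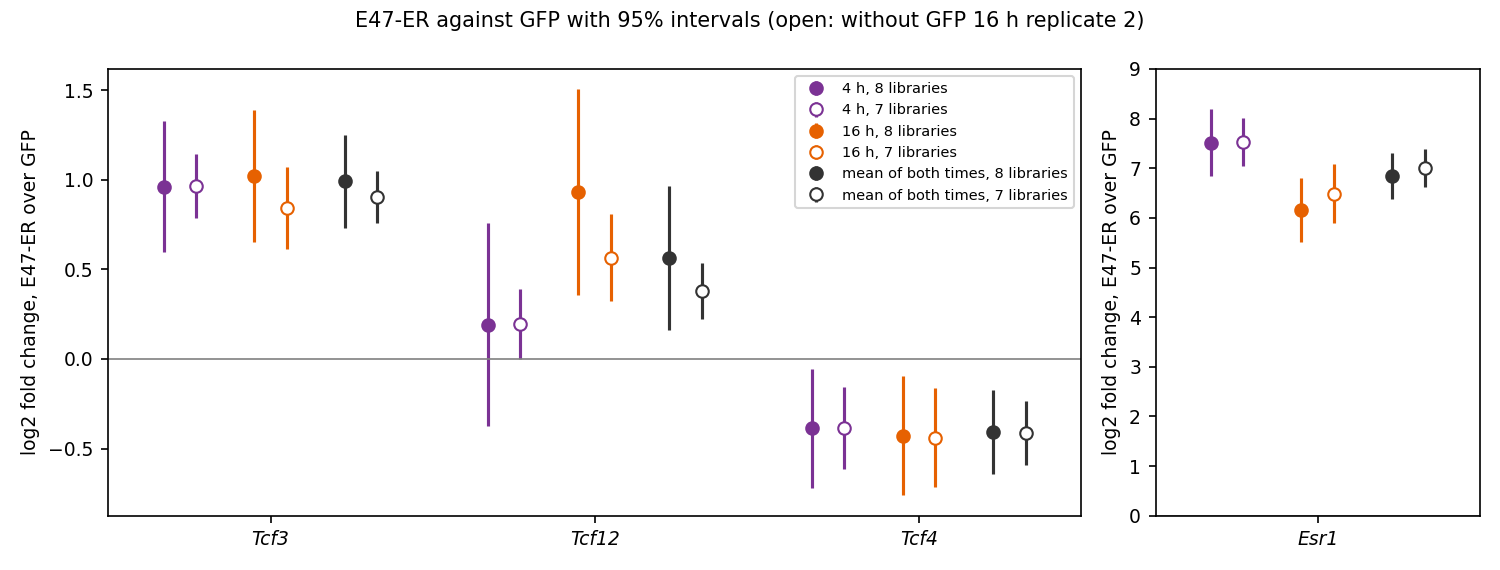
Log2 fold change of each gene, E47-ER over GFP, with its 95% interval, at 4 h, at 16 h and averaged over both times (filled, all 8 libraries; open, without replicate 2 of GFP at 16 h). Intervals narrowed without that library, and the Tcf12 estimate at 16 h was 0.93 with it and 0.57 without it, while Tcf4 stayed near -0.4. The intervals drawn for Esr1 are too narrow for its few GFP counts.

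The order of the groups differed between the genes. Tcf3 averaged 158 ± 16.8 and 157 ± 8.82 CPM in E47-ER cells at 16 and 4 h, against 80.4 ± 1.39 and 77.6 ± 14.1 CPM in GFP cells at 4 and 16 h (SD, n = 2 each). Neighbours within a vector did not differ beyond their spread, and the step lay between the vectors. Tcf12 averaged 81.0 ± 0.104 CPM in E47-ER cells at 16 h and 63.9 ± 6.30 at 4 h, followed by GFP cells with 55.9 ± 4.28 at 4 h and 42.1 ± 17.5 at 16 h. The first step was wider than the spread of either neighbour. In the second the nearest libraries stood at 59.4 and 59.0 CPM, and the third lay within the SD of GFP cells at 16 h. Tcf4 was lowest in E47-ER cells at 4 h, at 31.7 ± 2.45 CPM, and at 35.6 ± 2.57 in those at 16 h, with 41.5 ± 5.42 in GFP cells at 4 h and 47.9 ± 0.113 at 16 h. Here no neighbouring groups overlapped, but their nearest libraries stood at 33.5 and 33.8, at 37.4 and 37.7, and at 45.3 and 47.8 CPM. In these bulk samples fewer cells with a transcript and less of it per cell cannot be told apart. No gene of the 4 was called between 16 h and 4 h in E47-ER cells, where 0.0147% of tested genes were called, or in GFP cells, where 0% were. The difference of the effect between the times likewise called 0%. In the fit of edgeR 671 genes had an unadjusted p under 0.05 for that difference and 1238 for GFP cells, and DESeq2 called 0 in each.

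Compared per length, Tcf3 was the highest of the E protein genes and Tcf4 the lowest in every library. CPM divided by the kilobases of merged exons (RPKM) averaged 38.8 for Tcf3, 4.11 for Tcf12 and 1.16 for Tcf4 in E47-ER cells at 4 h, against 19.9, 3.602 and 1.52 in GFP cells. At 16 h they averaged 39.1, 5.22 and 1.299 in E47-ER cells, against 19.2, 2.71 and 1.75 in GFP cells. Merged exons ran to 4039 bases for Tcf3, 15529 for Tcf12 and 27382 for Tcf4, more than any 1 transcript holds. Scaled instead by the longest annotated transcript, of 2950, 6299 and 8577 bases, the order was the same in 7 libraries, and in replicate 2 of GFP at 16 h Tcf4 stood above Tcf12, at 5.57 against 4.71 RPKM.

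As a share of the summed RPKM of the 3 genes, Tcf3 took 86.8 ± 1.85% in E47-ER cells and 80.4 ± 1.38% in GFP cells (SD over 4 libraries each, both times). Tcf3 took 86.9 and 89.1% in E47-ER cells at 4 h, against 80.4 and 78.7% in GFP cells. At 16 h the Tcf3 share was 84.6 and 86.7% in E47-ER cells, against 80.5 and 82.1% in GFP cells. Tcf4 took 2.75 ± 0.346% in E47-ER cells and 6.79 ± 1.25% in GFP cells. Tcf12 took 10.4 ± 1.55% in E47-ER cells and 12.8 ± 2.40% in GFP cells. Without replicate 2 of GFP at 16 h the shares in the 3 GFP libraries left averaged 79.9% for Tcf3, 6.20% for Tcf4 and 13.9% for Tcf12. Construct reads count as Tcf3 here, which raises its share and lowers the others by construction, so the shares are given without a test. On the longest transcripts the shares of Tcf3 were 77.6% in E47-ER cells and 67.4% in GFP cells, and those of Tcf4 5.72% in E47-ER cells and 13.3% in GFP cells.

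**Figure D3:**
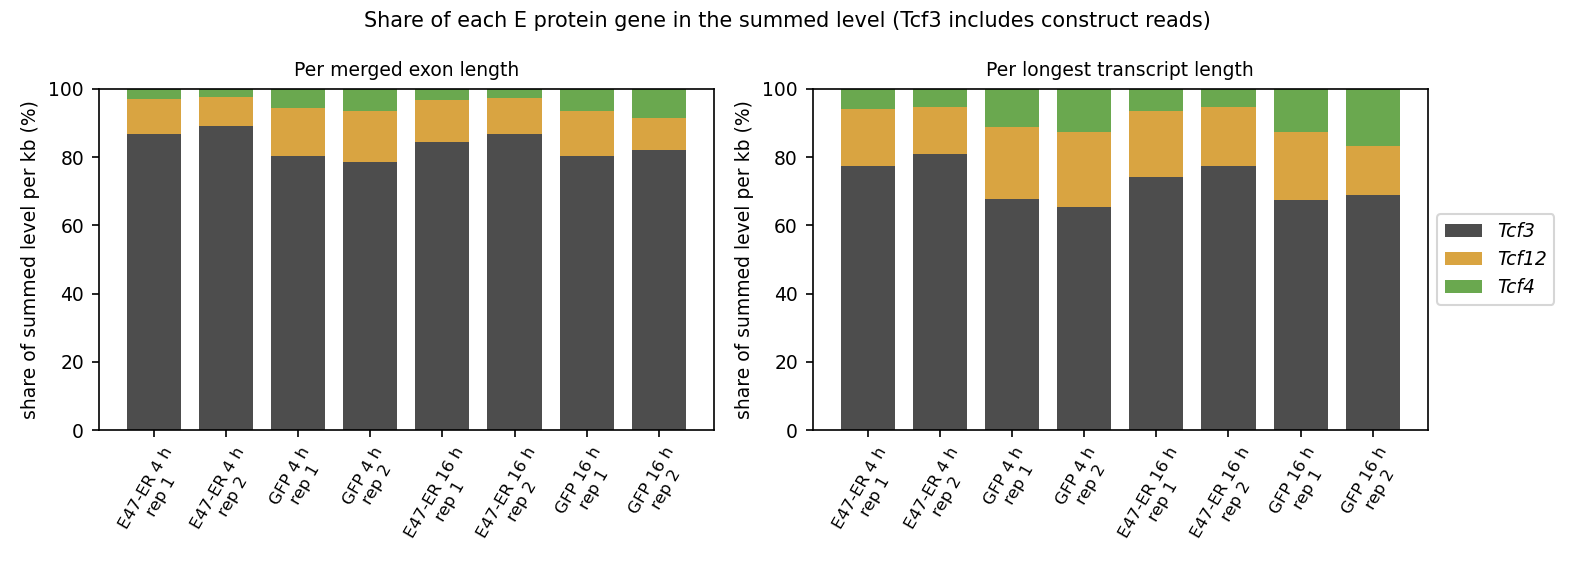
Share in percent of Tcf3, Tcf12 and Tcf4 in their summed level per kilobase in each library, by merged exon length (left) and by the longest transcript (right). Tcf3, whose reads include the construct, took 84.6 to 89.1% in E47-ER libraries and 78.7 to 82.1% in GFP libraries by merged exons, and the Tcf4 share was larger in every GFP library.

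A ratio of counts between Tcf4 and Tcf12 needs neither the library scaling nor the construct gene. It was 0.490 and 0.505 in E47-ER cells at 4 h, against 0.712 and 0.769 in GFP cells. At 16 h it was 0.461 and 0.417 in E47-ER cells, against 0.881 and 1.61 in GFP cells. The 4 E47-ER libraries lay below the 4 GFP libraries, and the value of 1.61 is that of the library that stood apart. This ratio was chosen after the values of both genes were seen and is given without a test.

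Across the 8 libraries the log2 CPM of Tcf3 and Esr1 had a Pearson correlation of 0.952, and Tcf3 and Tcf4 one of -0.857. Tcf3 and Tcf12 stood at 0.786, Tcf12 and Esr1 at 0.618, Tcf4 and Tcf12 at -0.596, and Tcf4 and Esr1 at -0.810. The libraries share the 2 vectors, so these values mostly restate the difference between E47-ER and GFP cells. With replicate 2 of GFP at 16 h left out, Tcf3 and Esr1 stood at 0.990 and Tcf4 and Tcf12 at -0.404.

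The genes most like each of the 4, by Pearson correlation of log2 CPM over the 8 libraries among 8771 genes with an average log2 CPM of 3 or more, are given as a description. Since Tcf3, Tcf4 and Esr1 separate the vectors, genes chosen for their likeness to them do so too, and the fold changes of these genes carry no test. For Tcf3 they were Spsb1 (0.991), a SOCS box adaptor of a ubiquitin ligase, Zfp36l2 (0.989), an RNA-binding protein that promotes mRNA decay, and Cerk (0.988), ceramide kinase. For Esr1 they were St8sia1 (0.991), a ganglioside sialyltransferase, Sdc4 (0.985), the proteoglycan syndecan-4, and Sla (0.983), an adaptor that dampens antigen receptor signals. Averaged over both times, the log2 fold changes of these 6 ran from 0.80 for Cerk to 2.32 for Spsb1. For Tcf4 they were Pou2f2 (0.968), the transcription factor Oct-2, Igsf8 (0.963), an immunoglobulin superfamily membrane protein, and Klf6 (0.961), a zinc finger transcription factor. Their averaged log2 fold changes were -0.90 for Pou2f2, -0.23 for Igsf8 and -0.63 for Klf6. For Tcf12 they were Thada, Slc35b4, a nucleotide sugar transporter, and Pik3r5, a regulatory subunit of PI3 kinase gamma, all at 0.987. Thada, like Tcf12, was lowest in replicate 2 of GFP at 16 h, at 11.2 CPM against 20.6 to 32.9 CPM in the other libraries. Without that library the correlations of Thada, Slc35b4 and Pik3r5 with Tcf12 were 0.953, 0.951 and 0.973.

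Among the partners and regulators of E proteins, the Id genes rose together. Of the 4 Id genes, which encode the inhibitors that pair with E proteins, Id1, Id2 and Id3 were tested, and Id4 had 2 counts in all. Averaged over both times all 3 were called higher in E47-ER cells, against 1.82% of tested genes called higher. At 16 h 1 was called, against 1.25%. At 4 h 0 of 3 were, against 0.271%, while all 3 had an unadjusted p under 0.05 and DESeq2 called 2. Over all 13644 tested genes 794 had an unadjusted p under 0.05 at 4 h and 2655 in the averaged comparison. Such counts of the lists below stand beside these totals, and DESeq2 calls beside its totals in the last section. Id3 had the largest fold change of the 3. Id3 stood at 45.8 and 34.9 CPM in E47-ER cells at 4 h, against 10.3 and 6.82 CPM in GFP cells, and at 85.7 and 63.9 CPM in E47-ER cells at 16 h, against 15.2 and 6.13 CPM in GFP cells. The averaged log2 fold change of Id3 was 2.50 (SE 0.273, adjusted p = 0.00345). Id2, the Id gene on which ILC depend, was the most abundant, at 1487 and 1466 CPM in E47-ER cells at 4 h, against 773 and 851 CPM in GFP cells, and at 1848 and 1742 CPM in E47-ER cells at 16 h, against 824 and 1315 CPM in GFP cells. Its averaged log2 fold change was 0.81 (SE 0.15, adjusted p = 0.0348). Id1, whose counts may hold transgene reads, had an averaged log2 fold change of 1.40 (SE 0.238, adjusted p = 0.0240). The calls of Id1 and Id2 were lost when any 1 library other than those of GFP at 16 h was left out, with adjusted p up to 0.151 and 0.177. Without replicate 2 of GFP at 16 h the log2 fold changes of Id1, Id2 and Id3 were 1.07, 0.87 and 2.26 at 4 h. Those at 16 h were 1.30, 1.12 and 2.28.

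Of 30 other helix-loop-helix genes, among them the tissue-restricted partners of E proteins, 9 were tested and 21 were under 1 CPM in every library. None was called by edgeR in the averaged comparison, with 2 at an unadjusted p under 0.05 and 2 called higher by DESeq2, and the median log2 fold change was -0.08, beside -0.01 over all genes tested. The smallest p belonged to Hes1, a Notch-responsive repressor (log2 fold change 1.297, adjusted p = 0.0555), and to Bhlhe40, a repressor induced by activation (0.48, adjusted p = 0.0624). Over 7 libraries these were the 2 called, both higher, where 7.36% of all tested genes were called higher and 7.13% lower. Of 16 tested corepressors and coactivators that work with E proteins, 1 was called higher and 0 lower in the averaged comparison, against 1.82% and 0.638% of all tested genes. Their median log2 fold change was -0.02, 4 of 16 had an unadjusted p under 0.05, and DESeq2 called 1 higher and 1 lower. Over all tested genes 2655 of 13644 had such a p. Over 7 libraries 3 were called higher and 2 lower, where 7.36% and 7.13% of tested genes were. The 1 called with all libraries was Cbfa2t3 of the ETO family, which binds E proteins. Cbfa2t3 had 35 and 38 counts in E47-ER cells at 4 h, against 1 and 2 counts in GFP cells, and 236 and 224 counts in E47-ER cells at 16 h, against 4 and 1 counts in GFP cells. The 2 vectors did not overlap, and the share of all tested genes that separate likewise was not counted. Like Esr1, Cbfa2t3 passed the filter on low counts only through E47-ER libraries, so its call is not counted as evidence and its p is not given. With so few counts in GFP cells its fitted fold change depends on the prior count and is not given either. Of 9 tested genes of E protein turnover, such as the ubiquitin ligase subunit Skp2 (0.21, adjusted p = 0.398), edgeR and DESeq2 called 0, and 0 had an unadjusted p under 0.05 in the averaged comparison. Over 7 libraries edgeR again called 0.

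Genes known as E protein targets in lymphocytes moved in part. Of 30 listed, 18 were tested, and 3 were called higher and 0 lower in the averaged comparison, where 1.82% and 0.638% of all tested genes were; their median log2 fold change was 0.26. The 3 were Id3, Tcf7, which encodes the T lineage factor TCF-1, and Ccr9, a chemokine receptor of thymocytes. Tcf7 stood at 6.85 and 7.41 CPM in E47-ER cells at 4 h, against 2.91 and 1.48 CPM in GFP cells, and at 16.7 and 19.2 CPM in E47-ER cells at 16 h, against 1.81 and 1.07 CPM in GFP cells. The averaged log2 fold change of Tcf7 was 2.63 (SE 0.239, adjusted p = 0.00162). Ccr9 was low throughout, with 15 and 9 counts in E47-ER cells at 4 h, against 6 and 6 counts in GFP cells, and 30 and 29 counts in E47-ER cells at 16 h, against 4 and 2 counts in GFP cells. It passed the filter only through its E47-ER libraries at 16 h, so its calls are not counted as evidence and their p is not given. Its averaged call was also lost when any 1 library other than those of GFP at 16 h was left out. At 16 h the same 3 genes were called. Of these calls, those of Id3 and Ccr9 were lost when any 1 library other than those of GFP at 16 h was left out. That of Tcf7 was lost when replicate 2 of E47-ER at 16 h was left out. At 4 h 0 of 18 were called, with 6 at an unadjusted p under 0.05 and 4 called by DESeq2. Without replicate 2 of GFP at 16 h, 8 of the 18 were higher and 1 lower in the averaged comparison, where 7.36% and 7.13% of tested genes were.

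The genes around the receptor moiety of the fusion were measured as well. Of 13 tested genes of the HSP90 chaperone machinery that holds steroid receptors, 1 was called higher and 0 lower in the averaged comparison, against 1.82% and 0.638% of all tested genes, while 2 of the 13 estimates were positive. The 1 was Fkbp5, an HSP90 cochaperone known as a glucocorticoid receptor target. Fkbp5 stood at 157 and 162 CPM in E47-ER cells at 4 h, against 119 and 106 CPM in GFP cells, and at 175 and 174 CPM in E47-ER cells at 16 h, against 120 and 93.5 CPM in GFP cells. Its averaged log2 fold change was 0.61 (SE 0.105, adjusted p = 0.0264), a call lost when any 1 library other than those of GFP at 16 h was left out (up to 0.177). Of the 13, 5 had an unadjusted p under 0.05, and DESeq2 called 1 higher and 2 lower. Over 7 libraries Fkbp5 was called higher and 4 were called lower, where 7.36% and 7.13% of tested genes were. Those 4, named after their values were seen, were the HSP90 genes Hsp90aa1 (-0.41, adjusted p = 8.38e-05) and Hsp90ab1 (-0.23, 0.0087) and the cochaperone genes Fkbp4 (-0.30, 0.0022) and Ahsa1 (-0.34, 5.97e-04). With all libraries Hsp90aa1 stood at -0.55 (adjusted p = 0.0760), and none of the 4 was called. The median of the 13 was -0.19, and their summed level lay between 4613 and 4849 CPM in E47-ER libraries and between 5067 and 5701 CPM in GFP libraries, with no test. Of 10 steroid and estrogen related receptor genes 4 were tested, and the 1 called was Esr1, whose call is not counted as evidence. Of 16 genes known to respond to estrogen in other tissues, 9 were tested and 0 were called by edgeR in the averaged comparison, with 2 at an unadjusted p under 0.05 and 1 called lower by DESeq2. Their median log2 fold change was -0.29. The smallest p belonged to Areg, the growth factor amphiregulin made by ILC2 (-0.81, adjusted p = 0.0682), and to Myb (-0.45, adjusted p = 0.165). With 7 libraries 0 were called higher and 3 lower, among them Areg (-0.60, adjusted p = 0.0143) and Myb (-0.53, 0.0046).

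**Figure D4:**
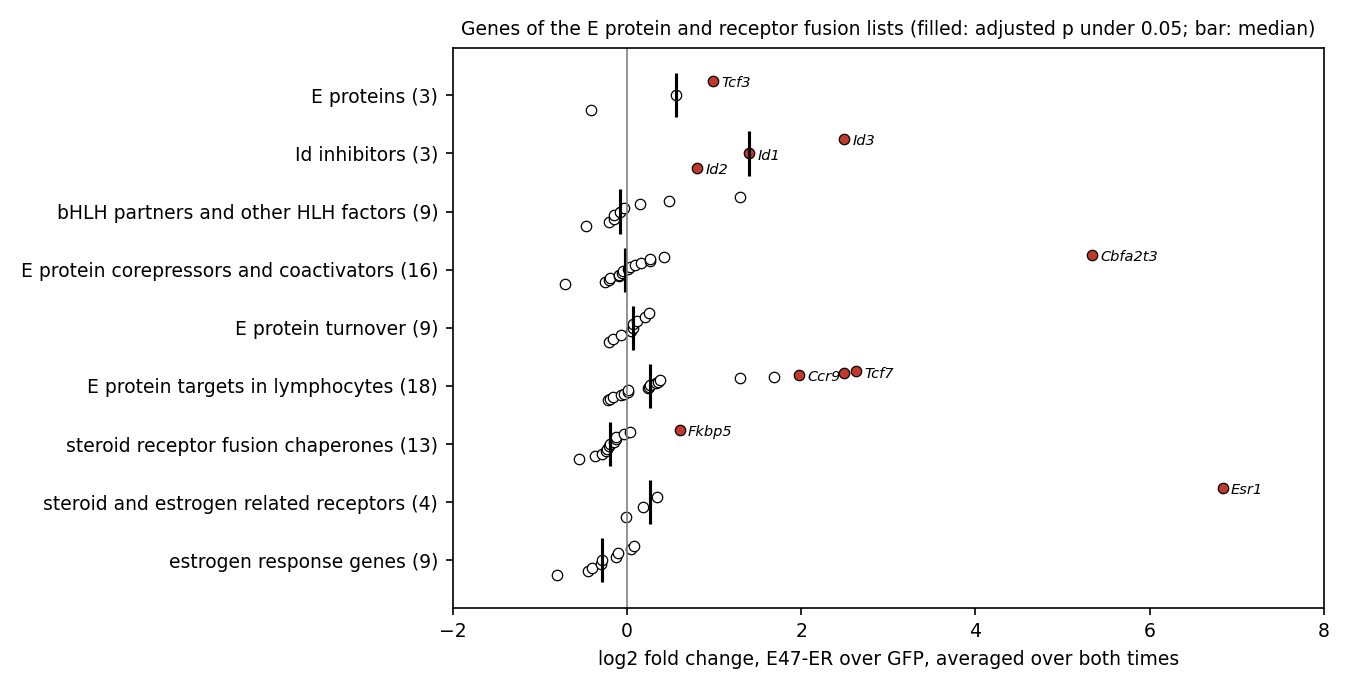
Log2 fold change, E47-ER over GFP averaged over both times, of every tested gene of 9 lists around the E proteins and the receptor fusion (filled, adjusted p under 0.05; bar, list median; number tested in brackets; Id3 is in 2 lists and labelled in the Id list). The called genes lie to the right of 0, and Cbfa2t3 and Esr1, whose GFP counts were very low, lie farthest out.

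The labelled cell type was checked against its markers. All 12 ILC2 markers were detected and tested in every comparison, with estimates in both directions. Averaged over both times 5 of the 12 estimates were positive, with a median of -0.12. Called higher in E47-ER cells were 3, Rora, Ptprc and Il17rb, and called lower 0, where 1.82% and 0.638% of tested genes were. The call of Rora held in all 8 fits that left out 1 library, while those of Ptprc and Il17rb were lost when any 1 library other than those of GFP at 16 h was left out (adjusted p up to 0.210 and 0.246). DESeq2 called 4 higher and 3 lower. In the fit of 7 libraries 5 were called higher and 4 lower, where 7.36% and 7.13% of tested genes were. Among the 4, and named after their values were seen, were the type 2 cytokine genes Il5 (-0.48, adjusted p = 5.66e-05) and Il13 (-0.43, 1.97e-05) and the interleukin 2 receptor gene Il2ra (-0.43, 4.13e-05), each also called lower at 4 h and at 16 h in that fit. With all libraries they stood at -0.65 (adjusted p = 0.0789), -0.50 (0.0575) and -0.39 (0.0990) and were not called. The summed level of the 12 markers lay between 19866 and 22263 CPM in E47-ER libraries and between 24350 and 29830 CPM in GFP libraries. Of the markers of plasmacytoid and conventional dendritic cells, where Tcf4 is known to be high, Siglech had 0 counts in all libraries. The summed level of these 10 genes lay between 209 and 260 CPM in E47-ER libraries and between 189 and 291 CPM in GFP libraries, and their averaged median log2 fold change was -0.14, with 3 of 7 tested genes positive. Of the 7, Irf8 and Ccr9 (the latter not counted as evidence) were called higher, against 1.82% of all tested genes, and 0 lower, against 0.638%. With 7 libraries the same 2 were higher and 1 was lower, Bst2 (-0.32, adjusted p = 0.0071), named after its value was seen. B cell markers summed to at most 8.81 CPM in E47-ER and 15.4 CPM in GFP libraries, and myeloid markers to at most 9.004 CPM in E47-ER and 6.25 CPM in GFP libraries. T cell markers summed to between 230 and 262 CPM in E47-ER libraries and between 230 and 442 CPM in GFP libraries, the highest in replicate 2 of GFP at 16 h, with 1 count of Cd8a in all. Thymic stromal markers summed to between 165 and 202 CPM in E47-ER libraries and between 138 and 167 CPM in GFP libraries, with Foxn1 at 0 counts. Epcam was called higher (averaged adjusted p = 0.0123), a call kept in 3 of 8 fits that left out 1 library (adjusted p up to 0.0747). Markers of natural killer cells, ILC1 and ILC3 summed to between 23167 and 25225 CPM in E47-ER libraries and between 21956 and 25867 CPM in GFP libraries, with Ncr1 at 0 counts. With 7 libraries the averaged comparison called Epcam and the myeloid marker Csf1r, also named after its value was seen, higher and 0 T cell, B cell, natural killer, ILC1 or ILC3 markers. The 0 for T cell markers holds for the averaged comparison and does not extend to 16 h in that fit. There their median log2 fold change was 0.41. The 6 tested, given after their values were seen, were Cd3g at 0.84, Trac at 0.66, Cd3e at 0.47, Cd247 at 0.36, Cd3d at 0.0029 and Lat at -0.21. Over 8 libraries 0 T cell markers were called at 16 h. The log2 fold change of Csf1r over 7 libraries was 2.75 at 4 h and 0.50 at 16 h. The part of other cell types in the results above was not tested.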

How the data were processed

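The authors deposited raw counts per Ensembl gene, 1 whole number for each of 50686 genes in 8 libraries, with no normalization. Per the submitters' processing notes the build was mm10 and DESeq2 was used. No aligner, counter, strand setting or annotation release is given in the sources used here; without strand, antisense reads cannot be told apart. Symbols came from GENCODE M21 (GRCm38) for 50376 IDs, and lengths and coordinates from the same annotation.

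Counts were fitted in R 4.3.3 with edgeR 4.0.16 (TMM, filterByExpr with a minimum count of 10, robust quasi-likelihood, 1 mean per group of 2, all 8 libraries), which gave 6 comparisons. The size of a log2 fold change over the root of its F statistic gave its standard error, and 95% intervals use the t distribution with the degrees of freedom of the fit. The procedure was tested on simulated data. No test of the shares is given. Alternatives used DESeq2 1.42.0, limma 3.58.1, other scalings, filters and thresholds, a length offset, replicate blocks and leaving out each library.

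Members and gene lists were chosen with earlier results of these data known. Named were the 4 genes, the 3 genes most like each without predicted genes and pseudogenes, Id1, Id2 and Id3, and per list up to 4 called genes by adjusted p or, with none called, the 2 with the smallest p; for marker lists with none called none was named. 1 gene that this rule names is not reported here. Whether replicate numbers pair libraries is not given in the sources used here. Deviations of libraries with the same number from their group means correlated at -0.09 to 0.20, which cannot settle it. Figures used matplotlib 3.10.9 in Python 3.11.15.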

Additional observations from a re-analysis of the deposited data

How the results depend on the processing

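Esr1 was called in each comparison of E47-ER with GFP cells under every alternative run, with log2 fold changes of 5.73 to 7.80. As above, these calls are not counted as evidence. Tcf3, averaged over both times, was also called under every alternative (0.90 to 1.10). The direction of Tcf3, Tcf12 and Tcf4 at 4 h, at 16 h and averaged did not turn under any alternative. At 4 h Tcf3 passed under DESeq2 (0.97), no filter on low counts (0.95), only the 4 libraries of that time (0.96), limma voom with quality weights (0.96) and a transcript length offset (0.96). At 16 h it did not pass with only the 4 libraries of that time (1.02, adjusted p = 0.334), with voom (1.03, 0.0547) or with a replicate block within each time (1.03, 0.111). Tcf12 passed at 16 h under DESeq2 (0.94) and no filter (0.98), and averaged under no filter (0.58) and voom (0.58). Between 16 h and 4 h in E47-ER cells Tcf12 was called in 1 of 10 alternatives other than leaving out 1 library (0.32 to 0.35). Tcf4 passed averaged with the length offset (-0.58, adjusted p = 0.0387). The cause of these changes was not tested. Leaving out each library in turn gave log2 fold changes for Tcf3 of 0.90 to 1.02 at 4 h and 0.84 to 1.25 at 16 h. For Tcf12 it gave 0.57 to 1.47 at 16 h and 0.38 to 0.83 averaged. For Tcf4 it gave -0.51 to -0.25 at 4 h, -0.49 to -0.35 at 16 h and -0.47 to -0.33 averaged. Tcf12 and Tcf4 passed only when a library of GFP at 16 h was left out; with replicate 1 out, the library that stood apart is alone in its group.

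Counts of called genes moved more. Beside 39 at 4 h, 217 at 16 h and 336 averaged, a threshold of 0.01 gave 5, 47 and 117 and one of 0.1 gave 68, 500 and 673. DESeq2 gave 109, 942 and 665, and no filter gave 165, 1816 and 1250. With only the libraries of that time there were 442 and 6, with voom 405 and 55, and with library totals only 19 at 4 h. The replicate block within each time gave 11, 54 and 135, and whether the numbers pair the libraries is not known. Leaving out 1 library gave 1 to 619 at 4 h, 15 to 7022 at 16 h and 90 to 6301 averaged. For 16 h against 4 h in E47-ER cells, with 2 called, the count was 0 at a threshold of 0.01, with library totals, with a minimum count of 30 and with the replicate block, 20 under DESeq2, 53 with no filter, 957 with only the libraries of that vector, 406 with voom, and 0 to 440 leaving out 1 library. In GFP cells it was 305 with no filter and 0 to 6034 leaving out 1 library, and for the difference of the effect 53 and 0 to 5124.

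Changes of sign were limited to uncalled estimates near 0. For 16 h against 4 h in E47-ER cells Esr1 stood at -0.0072 under DESeq2, -0.0048 under RLE scaling, -0.0034 with no filter, -0.0055 with the replicate block, -0.0019 with voom, -0.027 with the length offset and -0.16 to 0.15 leaving out 1 library. Tcf3 there stood at -0.021 with the length offset and -0.10 to 0.12 leaving out 1 library, which also gave Tcf3 -0.27 to 0.12 between times in GFP cells and -0.12 to 0.29 for the difference of the effect. For that difference Tcf4 stood at 0.082 with library totals, 0.034 with no filter and -0.17 to 0.092 leaving out 1 library. Library totals alone shifted the median of all genes by 0.115 at 16 h. A block within each time could not be fitted for the time comparisons, nor could the averaged comparison and the difference be had from the libraries of 1 time. With 2 libraries a group and 24 Esr1 counts in GFP cells, depth limits the Esr1 fold change more than its call.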
